A study of Mus musculus with 16 samples.

Results

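Retinoic acid, the active derivative of vitamin A, is made in cells, bound by cytosolic carriers and nuclear receptors, and cleared by dedicated enzymes, and the transcripts for 9 of these proteins were followed here in the medial prefrontal cortex (mPFC) of adult mice. The 9 genes were given as a list: *Cyp26b1*, *Aldh1a1*, *Rbp4*, *Crabp1*, *Rara*, *Rarb*, *Rxra*, *Rxrb* and *Rxrg*. All 9 were found among the 18424 genes of the table. *Cyp26b1* was chosen by its measured values, as one of the top genes for fluoxetine in wild-type mice, and the others were chosen by their place in the pathway, so the difference of *Cyp26b1* between the wild-type groups is given below as a description and without a test.

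The 16 mice were males of the C57BL/6N strain, sampled at postnatal day 120 (P120), with 4 mice in each of 4 groups. Both WT groups were wild type and both HT groups carried 1 copy of an *Arid1b* allele with a deletion at exon 5, made by CRISPR as a single line. *Arid1b* encodes a subunit of a chromatin remodeling complex. From P3 to P21 the nursing dams drank water with 0.1 mg/ml fluoxetine, a serotonin reuptake inhibitor, in 0.2% saccharin (Flx), or 0.2% saccharin alone (Veh), so the pups were exposed through milk. Pups were weaned at P21 and then drank plain water. Groups are named by genotype and by what the dams drank, as in HT-Flx, and all mice of all groups received saccharin through the dams. Because the drug went to dams and the litters are not named in the labels, mice of a group may share a dam, and the tests below measure only the spread between mice.

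Retinol circulates bound to RBP4, and inside cells it is oxidized first to retinal and then, by aldehyde dehydrogenases such as ALDH1A1, to retinoic acid. CRABP1 binds retinoic acid in the cytosol. The receptors RARα and RARβ pair with the retinoid X receptors RXRα, RXRβ and RXRγ on DNA and change transcription when retinoic acid is bound, whereas CYP26B1 oxidizes retinoic acid for removal and so limits how far it acts. In the brain, *Rarb* and *Rxrg* are known for strong expression in striatal projection neurons, and *Rbp4* is known from a Cre line that marks layer 5 cortical neurons.

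The sequences below show 3 promoters, those of *Cyp26b1* and of the receptor genes *Rarb* and *Rxrg*, whose levels varied together across mice. RAR-RXR pairs bind direct repeats of a 6-base half-site, and the promoter of *Rarb* holds such a repeat with a spacer of 5 bases (half-sites in capitals), shown with 6 flanking bases on each side. It lies at chr14:16575507-16575535 on the minus strand of GRCm38.p6 (RefSeq). The repeat itself runs from 53 to 37 bases before the RefSeq start, where 2 GENCODE exon entries of the gene overlap it.
Rarb: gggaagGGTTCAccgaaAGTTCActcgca
For *Cyp26b1* the stretch from 250 to 99 bases before the RefSeq start, chr6:84593909-84594060 on the minus strand, holds the letters TATAAA (capitals), 139 bases before that start. The stretch ends where the first GENCODE exon begins, so the letters lie nearer to the GENCODE start than to the RefSeq start.
Cyp26b1: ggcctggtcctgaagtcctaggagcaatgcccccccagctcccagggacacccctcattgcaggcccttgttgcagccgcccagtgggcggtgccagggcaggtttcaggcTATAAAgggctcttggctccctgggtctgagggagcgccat
For 1 of the 2 RefSeq promoters of *Rxrg*, chr1:167598112-167598361 on the plus strand, the 250 bases before the start hold 1 half-site, read on the opposite strand (capitals).
Rxrg: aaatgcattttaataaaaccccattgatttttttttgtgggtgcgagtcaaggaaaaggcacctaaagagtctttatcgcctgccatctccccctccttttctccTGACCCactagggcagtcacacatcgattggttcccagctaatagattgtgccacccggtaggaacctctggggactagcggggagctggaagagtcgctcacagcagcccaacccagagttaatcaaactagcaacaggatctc

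The 4 spellings of the half-site (the common AGGTCA, its variant AGTTCA, the form GGGTCA that opens with a G, and likewise the variant GGTTCA) were searched on both strands of the 250 bases before each RefSeq start, and matches may overlap. At least 1 was present in 38.6% of 32851 promoters and in 7 of the 17 promoters of the 9 genes. The repeat with a spacer of 5 was rare, in 0.0883% of promoters, and among the 17 it was found in that of *Rarb*. Repeats with spacers of 1 and 2 bases, in 0.164% and 0.174% of promoters, were found in none of the 17. TATAAA, in 7.59% of promoters, was found in those of *Cyp26b1* and *Rbp4*. These are matches of letters and say nothing of binding.

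Values are the normalized counts the authors deposited, in which differences of sequencing depth were already scaled out, so the depth of each library is unknown. Column totals lay between 92.8% and 104% of their mean. *Arid1b* itself was at 1545 to 2005 in HT mice and 1787 to 2831 in WT mice, a log2 difference over both treatments of -0.39 (SE 0.080) that missed the threshold (adjusted p = 0.0969 by limma). Cortical glutamatergic markers were high in every mouse, with summed levels between 117423 and 211731. Markers of the olfactory bulb, which lies in front of the mPFC, stood apart in 5 mice whose *Eomes* value was at least 100: replicate 1 of WT-Veh, replicates 1, 2 and 4 of WT-Flx and replicate 4 of HT-Veh. Striatal markers also varied between mice. In such tissue samples, fewer cells of a type and less RNA per cell cannot be told apart.

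Levels of the 9 genes differed widely when divided by length. Per kilobase of merged exons, *Rxrb* had the highest mean normalized count over the 16 mice, 378, followed by *Aldh1a1* at 192, *Rbp4* at 163, *Rxra* at 157, *Rxrg* at 78.6, *Rara* at 74.0, *Rarb* at 51.3, *Cyp26b1* at 28.9 and *Crabp1* at 15.7. The neighbors *Rbp4* and *Rxra*, and likewise *Rxrg* and *Rara*, were closer to each other than the spread between mice. That spread also separated the genes. The coefficient of variation over the 16 mice was 9.93% for *Rxra*, 11.9% for *Rxrb*, 13.6% for *Aldh1a1* and 15.6% for *Rbp4*, against 32.4% for *Rarb*, 43.5% for *Cyp26b1*, 55.1% for *Rxrg* and 125% for *Crabp1*.

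*Cyp26b1* (ENSMUSG00000063415; GRCm38 chromosome 6, 84571414 to 84593908, minus strand), the enzyme that clears retinoic acid, was lowest in WT-Veh mice. Its normalized counts were 137, 64.4, 68.2 and 70.6 in WT-Veh replicates 1 to 4 and 218, 222, 220 and 170 in WT-Flx replicates 1 to 4. Every WT-Flx mouse was above every WT-Veh mouse. In HT-Veh the values were 146, 140, 128 and 255, and in HT-Flx they were 89.8, 238, 83.9 and 223. The HT-Flx mice thus fell into a low and a high pair, and both pairs lay within the range of the other groups. Group means were 85.0 ± 34.6 in WT-Veh, 159 ± 83.2 in HT-Flx, 167 ± 59.0 in HT-Veh and 208 ± 25.0 in WT-Flx (SD, n = 4), and in this order neighboring groups overlapped.

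**Figure D1:**
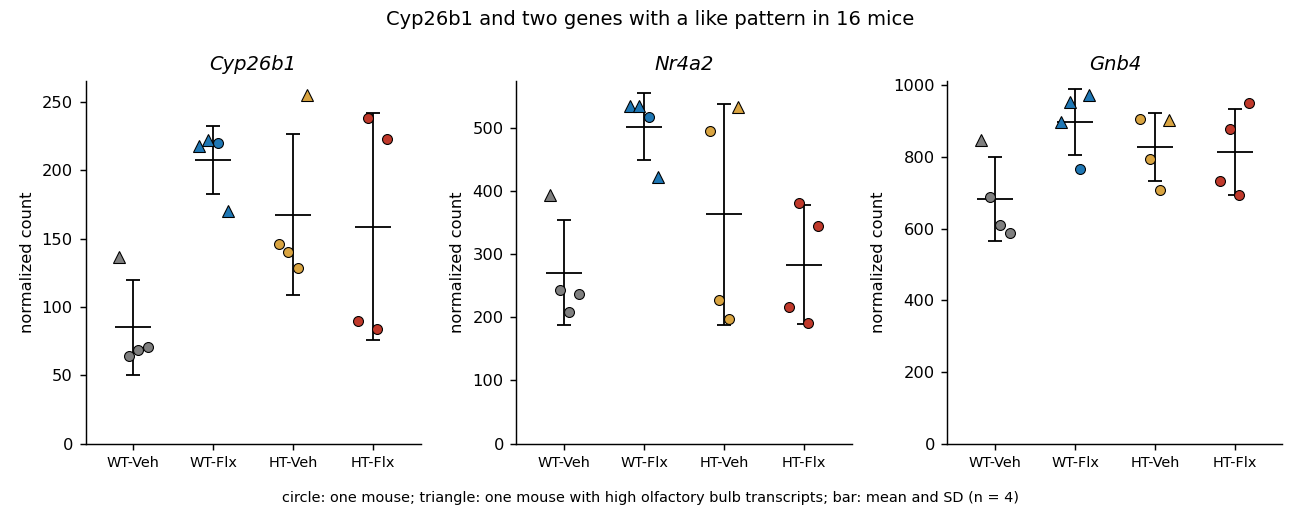
Normalized counts of *Cyp26b1*, *Nr4a2* and *Gnb4* (y axes from 0) in the 4 groups, with 1 symbol for each mouse, triangles for the 5 mice with high olfactory bulb transcripts, and bars for the mean and SD (n = 4). *Cyp26b1* lies at 170 to 222 in all 4 WT-Flx mice, above the 64.4 to 137 of WT-Veh, while HT-Flx holds 2 mice at 83.9 and 89.8 and 2 at 223 and 238.

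Between WT-Flx and WT-Veh, the contrast that put *Cyp26b1* on the list, the log2 difference was 1.34 (SE 0.24), a 2.54-fold higher level. It ranked 4 by unadjusted p among the 16833 genes fitted and 56 by size of rise. The genes just ahead of it by p were *AC123659.1* (log2 difference 4.28) and *Rps6-ps4* (1.08), and those just after it were *Pfdn2* (0.47), a prefoldin subunit, and *Rps12-ps3* (1.12). *Rps6-ps4* and *Rps12-ps3* are ribosomal protein pseudogenes, whose reads can be shared with their parent genes. No gene passed the limma threshold in this comparison (0% called, with 707 genes, 4.2%, at an unadjusted p under 0.05), and 1.81% of genes were higher in WT-Flx without overlap.

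Olfactory bulb and striatal markers also tended to be higher in WT-Flx than in WT-Veh, though the highest summed bulb level was in WT-Veh. The smallest unadjusted limma p was 0.0874 among the bulb markers and 0.0933 among the striatal markers. For the bulb, 3 of the 4 WT-Flx mice and 1 of the 4 WT-Veh mice were rich in its markers. For 9 of the 10 listed bulb markers that were in the table, the summed level ran from 1109 to 13138 in WT-Veh, 1307 to 11137 in WT-Flx, 1038 to 4449 in HT-Veh and 989 to 1276 in HT-Flx. Of the defining markers, *Eomes* was listed at 0 in replicate 3 of HT-Flx. All 9 had positive log2 differences in WT-Flx against WT-Veh (median 1.13, beside -0.00091 over all genes). All 10 striatal markers were also positive there, with a median of 0.52, and all 10 were negative in HT-Flx against HT-Veh, with a median of -0.17 beside 0.0030 over all genes. In HT-Veh the summed level of these 10 was 20025 in replicate 4 and 5261 to 8116 in the other mice, against 5018 to 10839 in HT-Flx. The smallest unadjusted limma p of the 10 in HT-Flx against HT-Veh was 0.488. Without the 5 bulb-rich mice the *Cyp26b1* difference was 1.69 on the log2 scale (SE 0.24), a description from 4 of the mice that chose the gene, where the 1 remaining WT-Flx mouse had 220 and the 3 remaining WT-Veh mice had 64.4 to 70.6. That fit takes the lone WT-Flx mouse to vary as the WT-Veh mice did. Among bulb-rich mice, the WT-Veh mouse had 137 and the 3 WT-Flx mice 170 to 222. The part of bulb or striatal tissue in the difference was not tested.

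In HT mice, which share no animal with the contrast that chose the gene, *Cyp26b1* was not detectably changed by fluoxetine. The log2 difference of HT-Flx from HT-Veh was -0.18 (SE 0.35, limma adjusted p = 1.00), and 2 HT-Flx mice were below and 2 were above the 3 lower HT-Veh mice. The sign rested on single mice, with 0.037 without HT-Veh replicate 4, the bulb-rich mouse of that group, 0.033 without HT-Flx replicate 1 and 0.065 without HT-Flx replicate 3. No gene was called in this comparison by limma (0% of 16814 genes, with 516, or 3.07%, at an unadjusted p under 0.05).

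For *Cyp26b1* the genotype difference had opposite signs under vehicle and under fluoxetine. HT-Veh was above WT-Veh by 0.99 on the log2 scale (SE 0.28), and HT-Flx was below WT-Flx by 0.54, a log2 difference of -0.54 (SE 0.32). Both comparisons hold wild-type mice that chose the gene, so neither was tested. Without the bulb-rich mice the first difference was 1.02 (SE 0.16), with 128 to 146 in 3 HT-Veh mice and 64.4 to 70.6 in 3 WT-Veh mice. The second was then -0.63, with only 1 WT-Flx mouse left. The drug difference in HT mice minus that in WT mice was -1.53 (SE 0.47), and the genotype difference over both treatments was 0.22 (SE 0.29). As each mouse was left out, the last value ran from 0.062 without HT-Veh replicate 4 to 0.40 without HT-Flx replicate 3, and the difference between the fluoxetine groups ran from -0.79 without HT-Flx replicate 2 to -0.29 without HT-Flx replicate 3.

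**Figure D2:**
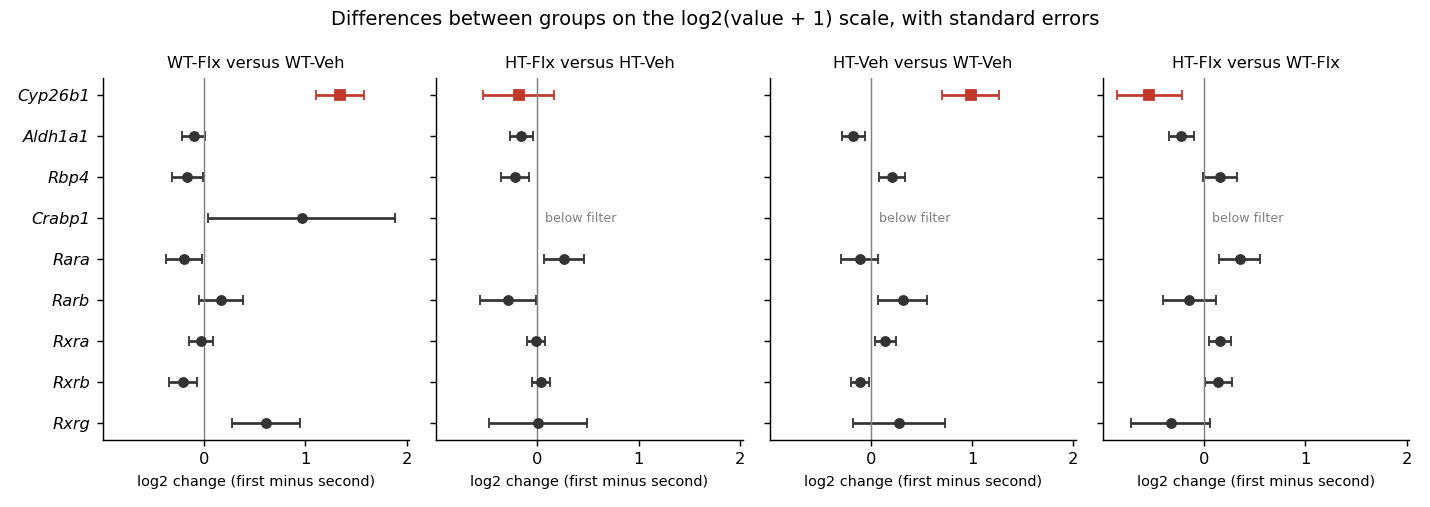
Log2 differences of the 9 genes (x axes, first group minus second, on the log2(value + 1) scale) in 4 comparisons, with bars for the standard error and the red square for *Cyp26b1*. *Cyp26b1* stands at 1.34 for fluoxetine in WT mice and at -0.18 in HT mice, and *Crabp1* was below the filter on low values in 3 comparisons.

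Over the 16 mice, the genes whose levels followed *Cyp26b1* most closely, among 17566 genes, were *Aimp2* (Pearson r = 0.903, Spearman rho = 0.882), *Rars* (r = 0.890, rho = 0.874), *Cdh2* (r = 0.854, rho = 0.844), *Gnb4* (r = 0.850, rho = 0.800) and *Pcdhb9* (r = 0.848, rho = 0.812). They were picked as the highest, so the values are descriptions without a test, and all points share the same libraries. With group means removed, r was between 0.724 for *Gnb4* and 0.883 for *Aimp2*. AIMP2 is a scaffold of the aminoacyl-tRNA synthetase complex and *Rars* encodes the arginyl-tRNA synthetase, which is no receptor of retinoic acid. *Cdh2* encodes N-cadherin, *Gnb4* a G protein beta subunit, and *Pcdhb9* belongs to a family of similar protocadherin genes between which reads can be split. Their ranges were narrower than that of *Cyp26b1*, with 292 to 410 normalized counts for *Aimp2* and 827 to 1029 for *Rars*, against 64.4 to 255.

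*Gnb4* and *Nr4a2*, an orphan nuclear receptor that pairs with RXRs, are known as markers of the claustrum, a thin sheet of neurons beneath the cortex. *Nr4a2* was 393, 243, 209 and 237 in WT-Veh and 535, 534, 517 and 423 in WT-Flx. As for *Cyp26b1*, no WT-Flx mouse overlapped WT-Veh, and replicate 1 was the highest of WT-Veh. In HT-Veh it was 494, 227, 196 and 533, and in HT-Flx 216, 381, 191 and 345, with replicates 2 and 4 high in HT-Flx for both genes. *Gnb4* was 847, 689, 609 and 588 in WT-Veh and 898, 954, 767 and 973 in WT-Flx. For a list of 6 claustrum markers, all in the table and written down after these values were seen, the summed level was 3655 to 7749 in WT-Veh, 4349 to 7243 in WT-Flx, 4331 to 6297 in HT-Veh and 3995 to 5581 in HT-Flx. Much of that sum was *Synpr*. The other 5 markers summed to 2125 to 2512 in WT-Veh, 2654 to 3180 in WT-Flx, 2361 to 3104 in HT-Veh and 2171 to 2774 in HT-Flx. They include *Gnb4* and *Nr4a2*, which were picked from these same values, so a higher sum in WT-Flx was partly built in. In WT-Flx against WT-Veh 5 of the 6 markers were positive (median log2 difference 0.38, beside -0.00091 over all genes), and *Ntng2* was negative (-0.072). For the interaction 5 of 6 were negative (median -0.49, beside 0.0021). Their part in the *Cyp26b1* values was not tested.

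*Aldh1a1* (ENSMUSG00000053279; chromosome 19, 20492715 to 20643465), which makes retinoic acid, had the smallest unadjusted p of the tested members for genotype over both treatments. Its values were 1086, 995, 1182 and 931 in WT-Veh, 901, 873, 1035 and 1103 in WT-Flx, 948, 808, 1112 and 870 in HT-Veh and 958, 716, 890 and 787 in HT-Flx. The groups overlapped, and the means ran from 1048 ± 110 in WT-Veh down to 838 ± 108 in HT-Flx (SD, n = 4). Over both treatments the log2 difference of HT from WT was -0.20 (SE 0.082, unadjusted p = 0.0268, limma adjusted p = 0.391), against a background of 7 called genes of 17567, or 0.0398%, and of 11.9% at an unadjusted p under 0.05. It was -0.17 (SE 0.11, adjusted p = 0.922) between the vehicle groups and -0.23 (SE 0.12, adjusted p = 0.529) between the fluoxetine groups.

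*Rbp4*, the retinol carrier, was 194, 211, 232 and 224 in WT-Veh and 248, 181, 173 and 174 in WT-Flx. In HT-Veh it was 254, 264, 204 and 281, and in HT-Flx 187, 211, 205 and 258. The HT-Veh mean was the highest of the 4, 251 ± 33.1, but 1 of its mice lay within the WT-Veh range. The log2 differences were 0.21 (SE 0.13, adjusted p = 0.922) for HT-Veh against WT-Veh, -0.22 (SE 0.14, adjusted p = 1.00) for HT-Flx against HT-Veh and 0.18 (SE 0.10, adjusted p = 0.461) for HT against WT over both treatments.

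*Crabp1*, the cytosolic retinoic acid carrier, was close to the lower limit of the table in most mice. Its values were 36.5, 0.908, 12.6 and 5.39 in WT-Veh, 7.10, 21.2, 7.33 and 59.4 in WT-Flx, 1.79, 2.83, 1.80 and 21.3 in HT-Veh and 12.4, 7.28, 2.72 and 1.19 in HT-Flx. The 4 highest values belonged to bulb-rich mice, and the other bulb-rich mouse had 7.10; the part of bulb tissue in these values was not tested. The gene passed the filter on low values in the comparison of WT-Flx with WT-Veh, where its log2 difference was 0.97 (SE 0.92; 0.23 without WT-Veh replicate 2 and 1.33 without WT-Flx replicate 1), and in both fits of all 16 mice. Leaving out WT-Veh replicate 1 or 3, or WT-Flx replicate 2 or 4, took the gene below the filter. The difference was therefore not fitted without any of these higher mice, and the range given does not cover their influence. Over both treatments the HT minus WT difference was -1.23 (SE 0.64, limma adjusted p = 0.448).

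**Figure D3:**
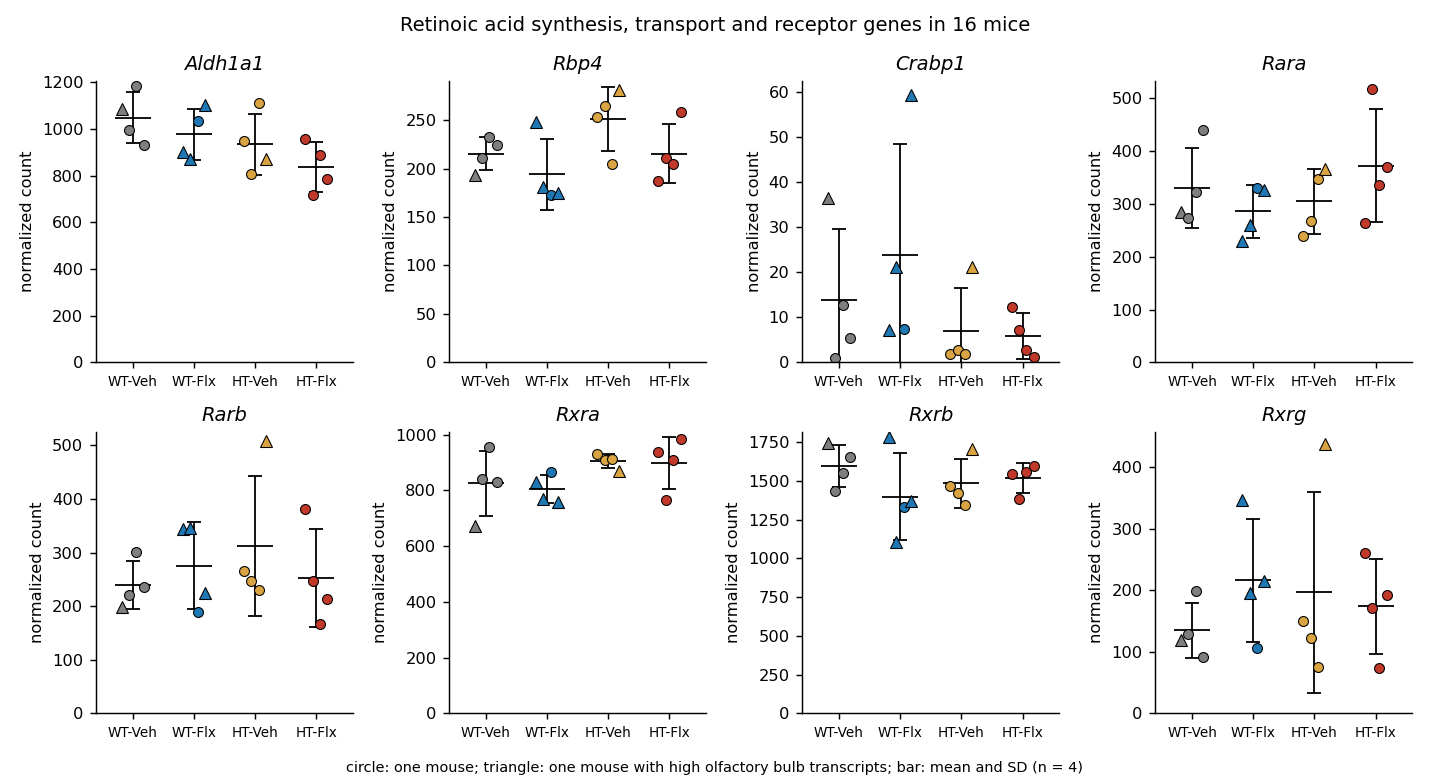
Normalized counts (y axes from 0) of *Aldh1a1*, *Rbp4*, *Crabp1* and the 5 receptor genes in the 4 groups, with 1 symbol for each mouse, triangles for the 5 mice with high olfactory bulb transcripts, and bars for the mean and SD (n = 4; bars of *Crabp1* that reach below 0 are clipped at the axis). The groups overlap for each gene, and the highest *Rarb* and *Rxrg* values, 508 and 437, belong to the same HT-Veh mouse.

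Among the receptors, *Rara* was 284, 274, 322 and 440 in WT-Veh, 229, 259, 329 and 326 in WT-Flx, 238, 268, 346 and 366 in HT-Veh and 264, 518, 336 and 370 in HT-Flx. Its largest difference was between the fluoxetine groups, at 0.35 on the log2 scale (SE 0.20, adjusted p = 0.545 by limma), where 7 genes, 0.0417% of 16788, were called. For HT-Flx against HT-Veh it was 0.27 (SE 0.20, adjusted p = 1.00), and the interaction was 0.46 (SE 0.29, adjusted p = 0.998). Without HT-Flx replicate 2, the highest mouse, these differences were 0.18, 0.092 and 0.29. All 4 groups overlapped.

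*Rxra* was the receptor gene with the least spread. It was 671, 840, 956 and 831 in WT-Veh, 829, 768, 866 and 757 in WT-Flx, 931, 909, 912 and 868 in HT-Veh and 937, 765, 908 and 985 in HT-Flx. The HT groups had means of 905 ± 26.4 and 899 ± 94.4 and the WT groups 825 ± 117 and 805 ± 51.8 (SD, n = 4). Over both treatments the difference was 0.15 on the log2 scale (SE 0.071, unadjusted p = 0.0490, limma adjusted p = 0.420), and without the 5 bulb-rich mice it was 0.061 (SE 0.077). *Rxrb*, the most abundant member per kilobase, ran from 1433 to 1745 in WT-Veh, 1106 to 1782 in WT-Flx, 1343 to 1706 in HT-Veh and 1381 to 1599 in HT-Flx. Its log2 differences lay between -0.21 for WT-Flx against WT-Veh and 0.14 for HT-Flx against WT-Flx.

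*Rarb* and *Rxrg*, both known from striatal projection neurons, had wider ranges within groups than between the group means. *Rarb* (chromosome 14, 16430839 to 16819156, minus strand) was 199, 222, 302 and 237 in WT-Veh, 345, 346, 188 and 224 in WT-Flx, 265, 246, 230 and 508 in HT-Veh and 381, 248, 167 and 214 in HT-Flx. *Rxrg* (chromosome 1, 167598384 to 167639623, plus strand) was 120, 129, 198 and 91.7 in WT-Veh, 348, 195, 107 and 215 in WT-Flx, 150, 123, 75.7 and 437 in HT-Veh and 260, 172, 73.1 and 192 in HT-Flx. In both genes HT-Veh replicate 4 was the highest mouse of all 16 and HT-Flx replicate 3 the lowest. The *Rarb* difference of HT-Veh from WT-Veh was 0.32 (SE 0.24, limma adjusted p = 0.922; 3 genes called, 0.0178% of 16832), and it was -0.026 (SE 0.14) without the bulb-rich mice, HT-Veh replicate 4 among them.

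The levels of both genes followed striatal markers across mice. The striatum score, the mean log2(value + 1) of 10 markers such as *Drd1*, *Drd2* and *Adora2a*, ran from 7.85 to 9.43 in WT-Veh, 8.50 to 9.60 in WT-Flx, 7.38 to 10.3 in HT-Veh and 7.35 to 9.33 in HT-Flx. All 10 markers were in the table, and their summed level ran from 6096 to 12039, 7171 to 13753, 5261 to 20025 and 5018 to 10839 in these groups. For *Rxrg* the relation to the score over 16 mice had r = 0.897 (permutation p = 1e-05, the smallest that 100000 permutations can give, adjusted over 8 genes 8e-05) and rho = 0.879 (permutation p = 4e-05, adjusted 0.00032). For *Rarb* it had r = 0.868 (permutation p = 5e-05, adjusted 0.0002) and rho = 0.800 (permutation p = 0.0003, adjusted 0.0012).

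These relations did not rest on the mice at the ends of the score. Without the 2 mice farthest from its median, HT-Veh replicate 4 and HT-Flx replicate 3, r was 0.822 for *Rxrg* and 0.762 for *Rarb*. Within the 11 mice poor in bulb markers r was 0.842 and 0.742, and with group means removed it was 0.911 and 0.930. Over all 16 mice the other 6 tested genes had r between -0.155 for *Rara* and 0.456 for *Crabp1*, with permutation p adjusted over 8 genes of 0.202 or more. Within the 11 bulb-poor mice their r ran from -0.118 for *Rara* to 0.624 for *Crabp1*. With group means removed it ran from -0.265 for *Aldh1a1* to 0.449 for *Rbp4*. These r values within subsets or groups were not tested. *Cyp26b1* was not tested, since its values in the WT mice chose it, and its r of 0.304 and rho of 0.353 are descriptions. Tests were two-sided.

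**Figure D4:**
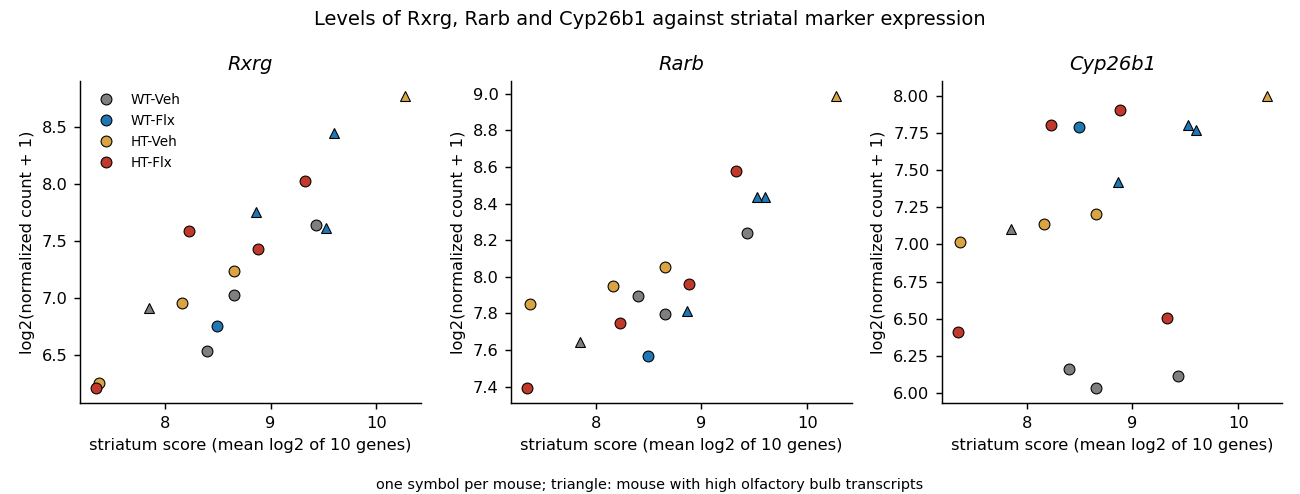
Levels of *Rxrg*, *Rarb* and *Cyp26b1* (y axes, log2(normalized count + 1)) against the striatum score (x axes, mean log2(value + 1) of 10 striatal markers), with 1 symbol for each of 16 mice colored by group and triangles for bulb-rich mice. *Rxrg* and *Rarb* rise along the score (r = 0.897 and 0.868), and *Cyp26b1*, shown without a test, has r = 0.304.

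Between treatments in WT mice the remaining members are described without a test, since the list was drawn up around this contrast. *Rxrg* had a log2 difference of 0.61 (SE 0.34). Without the bulb-rich mice it was -0.31, with replicate 3 (at 107) as the 1 WT-Flx mouse left. The log2 difference was 0.17 (SE 0.22) for *Rarb*, -0.20 (SE 0.18) for *Rara*, -0.026 (SE 0.12) for *Rxra*, -0.16 (SE 0.15) for *Rbp4* and -0.10 (SE 0.11) for *Aldh1a1*. In HT mice the corresponding values were 0.0076 (SE 0.48) for *Rxrg*, -0.29 (SE 0.28) for *Rarb*, -0.016 (SE 0.088) for *Rxra* and -0.16 (SE 0.12) for *Aldh1a1*, with limma adjusted p = 1.00 for each. Of the 8 members other than *Cyp26b1*, 0 passed the limma threshold in the comparisons where they were tested, and 2, *Aldh1a1* and *Rxra*, had an unadjusted p under 0.05 in 1 of them, the genotype difference over both treatments, where 11.9% of all genes did and 0.0398% were called. No interaction was called for any of the 17567 genes by limma (0%, with 754 genes, 4.29%, at an unadjusted p under 0.05).

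Other genes of the pathway were taken from lists of uptake and binding proteins, enzymes, receptor partners, other RXR partners and genes known to respond to retinoic acid. Of the uptake list 5 of 6 genes were in the table, of the enzymes 6 of 9, of the receptor partners 7 of 7, of the RXR partners 10 of 10 and of the responsive genes 8 of 11. The remaining listed genes, *Lrat* and *Cyp26a1* among them, were not analysed here. Genes of these lists past the limma threshold numbered 0 in each of the 6 comparisons, in either direction, where 0% to 0.0417% of all genes were called. At an unadjusted p under 0.05 each list held 0 to 2 genes. The shares over all genes at that level were 4.88% in HT-Veh against WT-Veh, where the uptake list held 2 of 5 genes tested, 3.07% in HT-Flx against HT-Veh, 4.2% in WT-Flx against WT-Veh, 10.4% in HT-Flx against WT-Flx, 4.29% for the interaction and 11.9% for genotype over both treatments. Per kilobase, *Rdh11* (190) and *Aldh1a2* (110) were the most abundant listed enzymes, and *Adh1* (3.68) the least. *Thra*, a thyroid hormone receptor that pairs with RXRs, was the most abundant RXR partner (3738), and *Vdr*, the vitamin D receptor, the least (2.32).

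In HT-Veh against WT-Veh, the uptake list had a median log2 difference of -0.020 over 5 genes tested and the RXR partners -0.081 over 9, beside 0.0062 over all genes. The smallest p values belonged to *Ttr* and *Thra*. *Ttr* encodes transthyretin, which carries RBP4 in blood and is made in the brain by the choroid plexus. It ran from 17.1 to 243 in WT-Veh, 5.57 to 33.1 in WT-Flx, 3.08 to 11.1 in HT-Veh and 5.93 to 10.6 in HT-Flx, with a log2 difference of -3.04 (SE 0.70, adjusted p = 0.783). Of 7 choroid plexus markers 5 were in the table, *Ttr* among them, with a summed level of 120 to 342 in WT-Veh, 93.8 to 168 in WT-Flx, 101 to 173 in HT-Veh and 89.6 to 162 in HT-Flx, and of the defining markers *Folr1* was listed at 0 in 1 WT-Flx mouse. Without *Ttr* the other 4 summed to 72.6 to 103 in WT-Veh, 83.3 to 135 in WT-Flx, 95.3 to 170 in HT-Veh and 79.0 to 154 in HT-Flx, with overlap. These markers did not move together. In HT-Veh against WT-Veh the log2 difference was -0.43 for *Clic6*, 0.49 for *Kl* and 0.82 for *Prlr*, and *Folr1* was below the filter. *Prlr* was at 56.2 in HT-Veh replicate 4 and at 8.88 to 14.5 in the other HT-Veh mice. The part of choroid plexus in the *Ttr* values was not tested. *Thra* was 14951 to 16039 in WT-Veh and 17436 to 18344 in HT-Veh, without overlap (2.06% of genes were higher without overlap), a log2 difference of 0.20 (SE 0.059, adjusted p = 0.899).

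In HT-Flx against HT-Veh, the smallest p values among listed genes belonged to *Stra6*, the cellular receptor for RBP4, and *Tgm2*, a transglutaminase induced by retinoic acid. *Stra6* had a log2 difference of -0.29 (SE 0.17, adjusted p = 1.00) and *Tgm2* -0.21 (SE 0.13, adjusted p = 1.00). The uptake list had a median of -0.17 over 4 genes tested and the responsive genes -0.053 over 8, beside 0.0030 over all genes. In HT-Flx against WT-Flx, *Nr4a2* was lower without overlap (3.13% of genes were), with a log2 difference of -0.88 (SE 0.21, adjusted p = 0.289). *Meis1*, a homeobox gene, had -1.41 (SE 0.42, limma adjusted p = 0.335), with 65.9 to 361 in WT-Flx and 43.2 to 80.0 in HT-Flx. Without the bulb-rich mice its difference was -0.16, with only 1 WT-Flx mouse left. The responsive genes had a median of -0.20 over 7 tested, beside 0.0081 over all genes.

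In WT-Flx against WT-Veh, listed genes with the smallest p were *Nr4a2*, at 0.93 (SE 0.19, adjusted p = 0.976), and *Ttr*, at -2.43 (SE 0.75, adjusted p = 1.00). The same genes had the smallest p for the interaction, at -1.21 (SE 0.43, adjusted p = 0.998) for *Nr4a2* and 2.65 (SE 0.92, adjusted p = 0.998) for *Ttr*. For HT against WT over both treatments they were *Ttr*, at -1.72 (SE 0.54, adjusted p = 0.297), and *Thrb*, the other thyroid hormone receptor gene, at 0.36 (SE 0.15, adjusted p = 0.391). The lists were chosen with earlier results of these data known, so the WT-Flx against WT-Veh and interaction values above are descriptions.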

How the data were processed

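RNA from the mPFC of 16 mice was selected for poly(A), made into stranded libraries and sequenced in pairs of reads. The authors quantified the reads against GRCm38 with Salmon 1.1.0 and summed them per gene, and the deposited values are read counts normalized by DESeq2 1.30.1, a signal that is not whole and keeps no library depth. No sample column was left unused. Gene names and positions came from GENCODE vM21 (18411 of 18424 identifiers matched) and promoters from RefSeq.

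Values were tested as log2(value + 1) with limma 3.58.1 in R 4.3.3 (moderated by an intensity trend) among genes with at least 10 in at least 4 mice of the fit, with Benjamini-Hochberg adjustment over all genes and a threshold of 0.05. A fold change on this scale understates that of low genes. Pairwise comparisons used the 8 mice concerned, and the interaction and the genotype difference over both treatments used all 16. The fit was tested on simulated data. The study's own test needs raw counts, so limma took its place.

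The members and lists were chosen with earlier results of these data known. Named were all 9 members, the 5 genes with the highest r to *Cyp26b1*, 2 listed genes with the smallest p per comparison, the highest and lowest of a list by level, and *Arid1b*. The claustrum list came after the values. Alternatives were pseudocounts of 0.1 and 8, no filter, upper-quartile scaling, a replicate block, an olfactory bulb covariate, all 4 groups in the fit and each mouse left out in turn; chosen after seeing the data were a striatum covariate and leaving out the 5 bulb-rich mice.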

Additional observations from a re-analysis of the deposited data

Results flagged for a closer look

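Of 36 sets of 4 mice (9 genes in 4 groups), 6 held a mouse far from the other 3, by the gap to the nearest mouse over the range of the group (above Dixon's 95% critical value), which chance passes in about 1 group in 20. *Cyp26b1* gave 3 of them. WT-Veh replicate 1 was at 137 (others 64.4 to 70.6), WT-Flx replicate 4 at 170 (others 218 to 222) and HT-Veh replicate 4 at 255 (others 128 to 146). HT-Veh replicate 4 was also far above its group for *Rarb*, at 508 (others 230 to 265), and for *Crabp1*, at 21.3 (others 1.79 to 2.83). *Rbp4* in WT-Flx replicate 1 was at 248 (others 173 to 181). All of these mice were among the 5 rich in olfactory bulb markers, and HT-Veh replicate 4 also had the highest striatum score, 10.3. The part of neighboring tissue in these values was not tested.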

How the results depend on the processing

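Of 714 values of 37 log2 differences under the alternatives, 10 reversed in direction and 4 passed the limma threshold where the reported value did not: *Ttr* (-3.26, adjusted p = 0.0360) and *Cyp26b1* (1.09) in HT-Veh against WT-Veh with the bulb covariate, and *Cyp26b1* (1.59) and *Nr4a2* (1.12) in WT-Flx against WT-Veh without WT-Veh replicate 1. Both *Cyp26b1* values come from comparisons that hold wild-type mice that chose the gene, so passing the threshold there is no test of it. The *Nr4a2* value, of a listed gene in the contrast that chose *Cyp26b1*, is likewise a description. As single mice were left out, 18 of the 37 moved by over 1.5 times. *Cyp26b1* in HT-Flx against HT-Veh turned to 0.077 with the bulb covariate and 0.037 without bulb-rich mice, and ran from -0.43 to 0.065 as mice were left out. Without bulb-rich mice, *Rarb* in HT-Veh against WT-Veh was -0.026, *Rxrg* in WT-Flx against WT-Veh -0.31, and the interaction 0.38 for *Rarb* and 0.81 for *Rxrg*. The *Rxrg* difference and both interactions rest there on the 1 remaining WT-Flx mouse. *Meis1* in HT-Flx against WT-Flx was 0.17 with the bulb covariate.

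Counts of called genes moved more. For HT-Veh against WT-Veh (3) they were 21 with the bulb covariate, 0 with all 4 groups fitted, 11 without bulb-rich mice and 0 to 2 as each mouse was left out. For WT-Flx against WT-Veh (0) they were 1 with the bulb covariate, 9 without bulb-rich mice and 0 to 4 with a mouse left out, 4 of them without WT-Veh replicate 1. For HT-Flx against WT-Flx (7) they were 4 at a pseudocount of 0.1, 0 with the bulb covariate, 4 with all groups, 1 with the striatum covariate and 0 to 23 with a mouse left out, the 23 without WT-Flx replicate 3. The count without bulb-rich mice for WT-Flx against WT-Veh rests on the 1 WT-Flx mouse that remained, so nothing is concluded from it. For the other fits that hold WT-Flx, counts without bulb-rich mice are not given for the same reason. For HT against WT over both treatments (7) the count was 1 to 13 with a mouse left out, 1 without WT-Flx replicate 2 and 13 without WT-Veh replicate 4. Among members the count went from 0 to 1 in 2 alternatives, each time *Cyp26b1* in a comparison that shares mice with its choice: HT-Veh against WT-Veh with the bulb covariate, and WT-Flx against WT-Veh without WT-Veh replicate 1 (0 to 1 as mice were left out). The causes were not tested.

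Replicate numbers did not clearly pair the mice: over 4 pairs per comparison the correlation of same-numbered deviations ran from -0.23 to 0.31. In WT-Flx against WT-Veh 3 of the 4 pairs were above 0.1 (mean 0.102), and in each other comparison 1 of 4 was. A batch or litter shared by same-numbered mice was not tested. With the number as a block, 0 genes were called in HT-Veh against WT-Veh in place of 3. The table gives no depth, so the precision of low genes such as *Crabp1* rests on 4 mice per group.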
